A study of Mus musculus with 4 samples.

Results

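Pcbp1 peaks in duplicated, tandemly repeated or peak-dense parts of the mouse genome were examined in naive and primed pluripotent cells. The loci were 4 windows of the build mm10, chr14:3000001-8000000, chr8:20000001-21000000, chr7:59000001-60000000 and chr6:114000001-115000000, together with the mitochondrial genome (chrM) and every unplaced or unlocalised contig. All peaks of both deposited lists at these places were taken, 295 of 15626 in all. They were 98 of the 12132 peaks of the Naive list and 197 of the 3494 peaks of the EpiLC list. The loci were chosen by the number of peaks the lists hold there and by their repeated sequence, so the number of peaks in them is a description and was not tested.

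The cells were mouse embryonic stem cells of the line E14 Tg2a, with no genetic change named in the labels. Naive cells had been kept for 3 passages without serum in N2B27 medium with LIF and inhibitors of MEK (PD0325901, 1 uM) and of GSK3β (CHIR99021, 3 uM). EpiLC, or primed epiblast-like cells, were made from such cells in 48 hours on fibronectin, in N2B27 with bFGF (12 ng/ml), Activin A (20 ng/ml) and KOSR, a serum replacement. Both were fixed with formaldehyde, and chromatin, sheared to about 500 bp, was precipitated with 12 ug of an antibody against Pcbp1. Each condition had 1 ChIP library and 1 input library. With 1 library per condition no difference between conditions could be tested, and every interval below covers counting error only.

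Pcbp1 is a KH-domain protein that binds runs of C in single-stranded nucleic acid and is known for roles in RNA processing, translation and transcription. A locus present in many near-identical copies is hard to read by sequencing, because a short read from 1 copy may match the others equally well and copies missing from the assembly add their reads to those that are present. Peak callers meet this by comparing the fragments stacked at a summit, the pileup, with a local background. Genes near the peaks on chromosome 14 belong to a large set of duplicated genes, and those on chromosome 7 to the imprinted region between Ube3a and Snrpn, known from Angelman and Prader-Willi syndromes.

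The sequences of 6 chromosome 14 promoters that a Pcbp1 peak overlapped are shown. They were chosen because they fall into 2 groups of related gene copies and hold the runs of C that the protein is named for. Each is the 250 bases before an annotated start, 5′ to 3′ on the gene's strand, from RefSeq (GRCm38.p6), with runs of at least 4 C or 4 G in capitals. A run of G is a run of C on the other strand. At Gm3173, Gm3488, Gm3667 and Gm3696 the annotated start lay inside the gene's annotated span, as did all the bases shown. Most summits lay outside the bases shown. Only the Gm3248 summit, 34 bp before the start, and the EpiLC summit of Gm3696, 237 bp before it, lay inside. At LOC115488283 the summits were 420 bp (Naive) and 484 bp (EpiLC) before the start, and at Gm3667 337 bp (EpiLC). The promoters of Gm3173, at chr14:4498613-4498862 (plus strand), and Gm3488, at chr14:5501048-5501297 (plus strand), were 97.2% identical over 216 aligned bases.
Gm3173: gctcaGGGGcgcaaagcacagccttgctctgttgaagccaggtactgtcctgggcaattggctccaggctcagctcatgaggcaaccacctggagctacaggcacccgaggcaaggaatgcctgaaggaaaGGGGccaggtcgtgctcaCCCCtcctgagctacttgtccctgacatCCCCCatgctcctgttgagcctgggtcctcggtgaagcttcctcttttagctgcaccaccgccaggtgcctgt
Gm3488: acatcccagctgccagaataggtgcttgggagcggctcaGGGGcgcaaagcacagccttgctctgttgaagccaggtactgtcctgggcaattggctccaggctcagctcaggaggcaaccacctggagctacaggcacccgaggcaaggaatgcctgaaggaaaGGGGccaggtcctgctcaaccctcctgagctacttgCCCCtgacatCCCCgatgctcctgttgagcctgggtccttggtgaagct

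The other 4 were 80.7% to 90.6% identical to each other, 55.7% to 63.0% identical to the first pair over the bases that aligned, and lay on the minus strand. They belonged to Gm3248 at chr14:5961682-5961931, LOC115488283 at chr14:6038260-6038509, Gm3667 at chr14:6889932-6890181 and Gm3696 at chr14:7105504-7105753. Their runs were mostly of G on the gene's strand, and the longest had 13 bases, in Gm3696.
Gm3248: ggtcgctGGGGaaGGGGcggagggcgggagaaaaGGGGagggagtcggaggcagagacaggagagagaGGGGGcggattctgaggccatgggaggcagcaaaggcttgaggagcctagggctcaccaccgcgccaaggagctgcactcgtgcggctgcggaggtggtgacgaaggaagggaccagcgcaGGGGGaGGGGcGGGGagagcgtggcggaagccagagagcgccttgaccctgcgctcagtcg
LOC115488283: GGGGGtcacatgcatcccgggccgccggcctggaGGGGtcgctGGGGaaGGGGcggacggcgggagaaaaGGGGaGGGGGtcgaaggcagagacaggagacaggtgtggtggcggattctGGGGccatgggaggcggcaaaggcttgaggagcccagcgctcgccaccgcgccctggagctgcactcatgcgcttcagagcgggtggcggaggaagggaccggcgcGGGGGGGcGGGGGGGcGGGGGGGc
Gm3667: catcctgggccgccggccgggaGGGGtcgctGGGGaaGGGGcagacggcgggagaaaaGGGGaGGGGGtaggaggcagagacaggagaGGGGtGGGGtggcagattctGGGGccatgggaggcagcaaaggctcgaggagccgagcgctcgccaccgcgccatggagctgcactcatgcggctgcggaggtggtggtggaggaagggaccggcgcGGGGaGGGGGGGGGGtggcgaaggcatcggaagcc
Gm3696: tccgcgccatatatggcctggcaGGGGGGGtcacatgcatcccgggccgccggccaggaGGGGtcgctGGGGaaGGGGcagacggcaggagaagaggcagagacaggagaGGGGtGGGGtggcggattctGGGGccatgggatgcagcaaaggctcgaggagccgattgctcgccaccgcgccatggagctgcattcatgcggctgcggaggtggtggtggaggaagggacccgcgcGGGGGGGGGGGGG

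All 6 promoters held CCCC or GGGG, but so did 83.1% of the 32817 promoters of the RefSeq table and 88.5% of the 156 promoters of the window. A run of at least 7 bases was found in 3 of the 6, in 17.9% of the window's promoters and in 6.66% of all promoters. At least 5 separate runs of 4 or more were found in 4 of the 6 and in 23.4% of all promoters. Those 4 were the related copies of the second group, and the 3 with a longer run were among them. Because the 6 were shown partly for their runs, these counts describe the choice and are no support. Promoters without a peak held such runs too. Of 16 window promoters that resembled that of Gm3696 (at least 80% identical over at least 150 aligned bases) and had no peak on them, 11 held a run of at least 7 bases and 15 held at least 5 runs. These are matches of letters and were not tied to binding by any test.

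Across the loci the EpiLC list held more peaks than the Naive list although it was the shorter list (plot of peak numbers by locus). Chromosome 14 held 19 Naive and 101 EpiLC peaks, chromosome 7 held 3 and 19, and chromosome 6 held 9 and 20. Chromosome 8 went the other way, with 26 Naive and 19 EpiLC peaks, and chrM held 5 Naive peaks and no EpiLC peak. Contig JH584304 held 23 and 29 peaks, and the other contigs held 13 and 9.

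**Figure D1:**
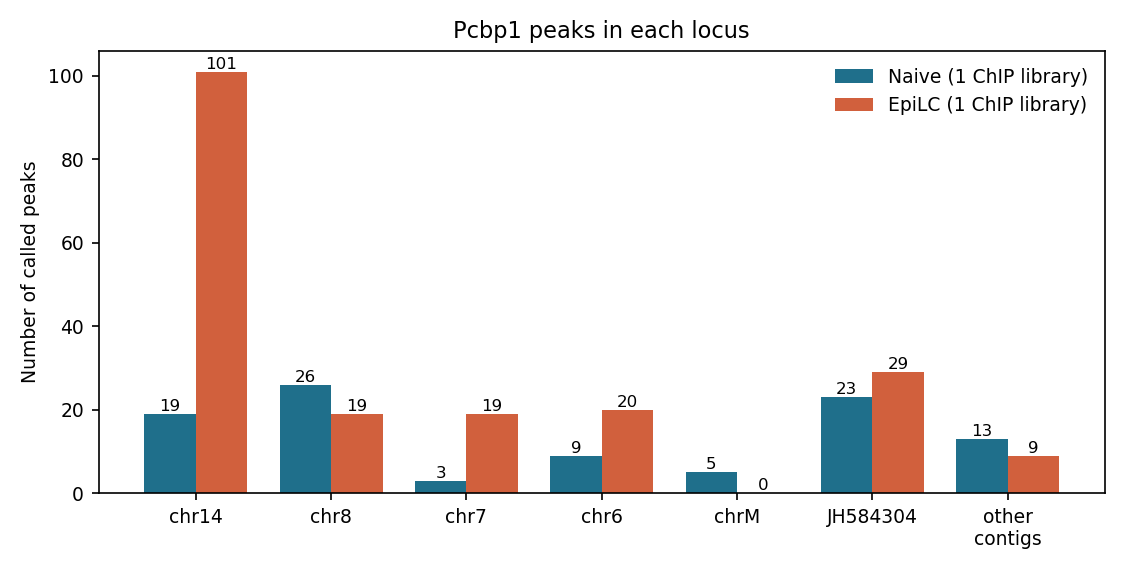
Number of Pcbp1 peaks in each locus (vertical axis) in the Naive and EpiLC lists, with 1 ChIP library behind each bar. The bar of 101 EpiLC peaks on chr14 is the tallest, and chr8 and the other contigs hold more Naive than EpiLC peaks, as does chrM, where EpiLC has none.

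Most of these peaks stood on a raised local background. Background and pileup were recovered from each peak's fold and p-value, and the background was divided by the lowest of its list (4.0 fragments in Naive, 7.43 in EpiLC), called the relative background below. It was at least 2 times the lowest in 86 of 98 Naive peaks (87.8%, exact binomial 95% interval 79.6 to 93.5), against 4.98% of the whole Naive list. In EpiLC it was so in 144 of 197 peaks (73.1%, 66.3 to 79.2), against 31.1% of the whole list. The median fold enrichment was 2.67 in the Naive peaks of the loci and 4.46 in the rest of that list. In EpiLC these medians were 2.76 and 3.45. The low folds went with high backgrounds: the median pileup at the loci was 87.5 fragments in Naive and 68 in EpiLC, against 24 and 44 in the rest of each list.

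**Figure D2:**
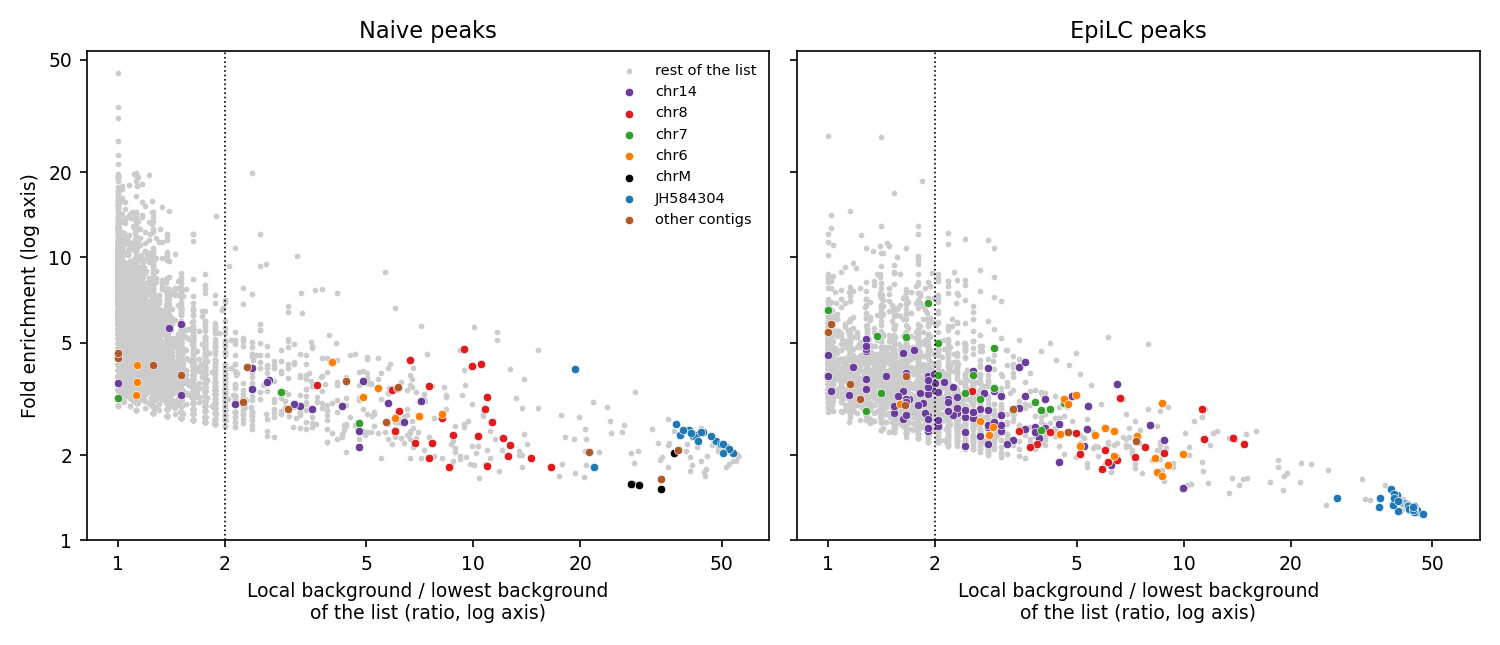
Fold enrichment against relative background, both on log axes, for every peak of the Naive (left) and EpiLC (right) lists, with the loci in colour, the rest of the list in grey and a dotted line at 2 times the lowest background. JH584304 and chrM lie at the far right at low folds, and chr14 peaks spread on both sides of the line.

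Few EpiLC peaks of the loci had a Naive partner once JH584304 was set aside. Of the 197 EpiLC peaks, 49 overlapped a Naive peak by at least 1 bp (24.9%, 19.0 to 31.5), against 48.3% of the whole EpiLC list. JH584304 gave 28 of the 49, and without that contig 21 of 168 overlapped (12.5%, 7.91 to 18.5). Of the 98 Naive peaks, 37 overlapped an EpiLC peak (37.8%, 28.2 to 48.1), against 13.7% of the whole Naive list, and without JH584304 it was 21 of 75 (28.0%). The shares were also taken apart by background. Among EpiLC peaks on a raised background, 20 of those in the loci without JH584304 overlapped a Naive peak (17.4%, 11.0 to 25.6), but 730 of 942 did so in the rest of the list (77.5%, 74.7 to 80.1). Among EpiLC peaks without a raised background it was 1 of 53 in the loci (1.89%, 0.0478 to 10.1) and 910 of 2355 in the rest (38.6%). Among Naive peaks on a raised background the shares were 19 of 63 (30.2%) and 154 of 518 (29.7%). Overlap shares depend on the numbers of peaks, by which the loci were chosen. Without JH584304 the loci held 75 Naive and 168 EpiLC peaks, but the whole lists held 12132 and 3494. The shares and their intervals are therefore a description only.

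A gene end, either annotated end of a gene, lay within 1 kb of 19 of 62 Naive summits on the annotated chromosomes (30.6%, 19.6 to 43.7), against 37.3% of the whole list, and of 41 of 159 EpiLC summits (25.8%, 19.2 to 33.3), against 38.7%. These intervals count summits as independent, and the shares depended on single loci. Without chromosome 14 the EpiLC share was 36.2% (24.0 to 49.9), and without chromosome 7 it was 17.1% (11.3 to 24.4). All 5 Naive summits of chrM and all 3 of chromosome 7 were among those near a gene end. Neighbours were frequent, as the choice of dense loci implies. Another summit of the same list lay within 10 kb of 65 of 98 Naive summits, against 38.2% of the list, and of 57.9% of the 197 EpiLC summits, against 21.7%.

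The chromosome 14 window held the most EpiLC peaks. Cut into 1 Mb steps it held 21, 25, 12, 17 and 26 EpiLC summits, and the last of these was the highest number among 2732 such steps of the genome. The same steps held 1, 7, 1, 4 and 6 Naive summits, where the median over the genome was 3. The next 0.5 Mb, from 8 to 8.5 Mb, held 2 EpiLC and 5 Naive summits. Outside the rule, the EpiLC list held 20 summits at 47 to 48 Mb of chromosome 6 and 18 at 23 to 24 Mb of chromosome 13. EpiLC folds on chromosome 14 ran from 1.53 to 5.14 with a median of 2.99, and Naive folds from 2.14 to 5.84 with a median of 3.11. Here 10 of 101 EpiLC peaks (9.90%, 4.85 to 17.5) overlapped 1 of the 19 Naive peaks, and 10 of those 19 were met. The small number of Naive peaks limits the EpiLC share.

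Of 168 annotated genes in the window, 52 held or lay within 1 kb of an EpiLC summit and 15 of a Naive summit, with 14 in common. Among the 80 protein-coding genes the numbers were 33 and 12. Of 46 pseudogenes with no annotated transcript, 3 had an EpiLC summit and none a Naive summit. The shares of all genes and of each gene type with a summit were not counted. These numbers therefore do not show whether the window's genes are unusual. Most of these genes carry only provisional names, and no function is stated for them here. Of the Naive summits, 9 of 19 lay within 1 kb of 1 of the window's 156 annotated transcript starts, against 31.8% of the Naive list on the chromosomes with starts in the table. Of the EpiLC summits, 17 of 101 did, against 31.3% of the EpiLC list. In the chromosome 8 window it was 0 of 26 Naive and 1 of 19 EpiLC summits, on chromosome 7 it was 1 of 3 and 1 of 19, and on chromosome 6 it was 0 of 9 and 0 of 20. On chromosome 14 the median distance to a start was 1040 bp for Naive and 13485 bp for EpiLC summits.

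The strongest peaks on chromosome 14 were at Gm3173 in both lists, at separate places near the gene's start. The Naive peak, at chr14:4497922, had 40 fragments over a background of 6.03, a fold of 5.84 (4.21 to 7.90). The EpiLC peak had its summit 55 bp after the annotated start at which the promoter shown above ends, and 53 fragments over 9.50, a fold of 5.14 (3.88 to 6.70). These peaks did not overlap, so neither list had a call at the other's place. The close copy Gm3488 had an EpiLC peak with a fold of 3.06 (2.24 to 4.08) and no Naive peak. The summit of that peak fell on the annotated start, 320 bp inside the gene's annotated span.

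At Gm3696 the lists met at 1 place. The Naive peak had 36 fragments and a fold of 5.63 (3.99 to 7.73), with its summit 256 bp before the start. The EpiLC peak had 60 fragments and a fold of 3.63 (2.79 to 4.66), with its summit 237 bp before it. The intervals of the folds overlapped, and both summits lay inside the annotated span of the gene. Divided by the lowest background of its list, the pileup was 8.99 in Naive and 8.07 in EpiLC. Related promoters did not all carry a peak. Among 19 others that were 80.1% to 99.0% identical to the Gm3696 promoter, 3 of them at least 94% identical, an EpiLC peak lay on 3 (Gm3248, LOC115488283 and Gm3667) and a Naive peak on 1 of these (LOC115488283). Within 1 kb there was an EpiLC summit at 6 and a Naive summit at 3. The promoter of Gm3512, 99.0% identical to that of Gm3696, had its nearest Naive and EpiLC summits 68831 and 68850 bp away. Reads that fit several copies could be placed at any of them, and none of the sources used here says how the aligner treated such reads.

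LOC115488283 had 3 Naive summits within 1 kb of its body or end, and its promoter peak had the lowest ratio of EpiLC to Naive fold among the 10 shared places of this chromosome (0.513). The Naive fold there was 2.99 (2.25 to 3.89) with 53 fragments, and the EpiLC fold was 1.53 (1.27 to 1.84), and these intervals did not overlap. The pileup relative to the lowest background was 13.2 in Naive and 15.3 in EpiLC, while the relative background was 4.26 and 9.96. Gm3248 had an EpiLC peak alone at its promoter (3.37, 2.67 to 4.21), and so had Gm3667 (4.09, 3.36 to 4.93). A Naive peak did lie in the body of Gm3667, 943 bp from that start. It had 91 fragments and a fold of 3.11 (2.51 to 3.81).

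The other places where both lists had a chromosome 14 peak had folds whose intervals overlapped. At Gm3715, a transcribed pseudogene, the folds were 3.64 in Naive and 3.56 in EpiLC. At Gm3739 they were 4.08 and 3.24, at Gm38418 2.14 and 2.47, at Gm8108 3.07 and 2.26, and at 2610042L04Rik 2.63 and 2.57. In a stretch shared by Gm32966 and Gm5796 they were 2.99 and 3.95, and a further Naive peak in Gm32966 had a fold of 3.67. Between genes, at chr14:3116582-3116906, they were 3.42 and 3.21, and at chr14:4723785-4724174 they were 2.92 and 2.93. After Gm3173, the strongest EpiLC peaks had no Naive partner: an intergenic peak at chr14:7453173 (4.86, 3.63 to 6.38), one within Gm3629 at the end of the lncRNA gene Gm33198 (4.77, 3.55 to 6.27), one in Gm10406 (4.72, 3.66 to 5.99) and an intergenic peak at chr14:3862772 (4.67, 3.47 to 6.16).

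**Figure D3:**
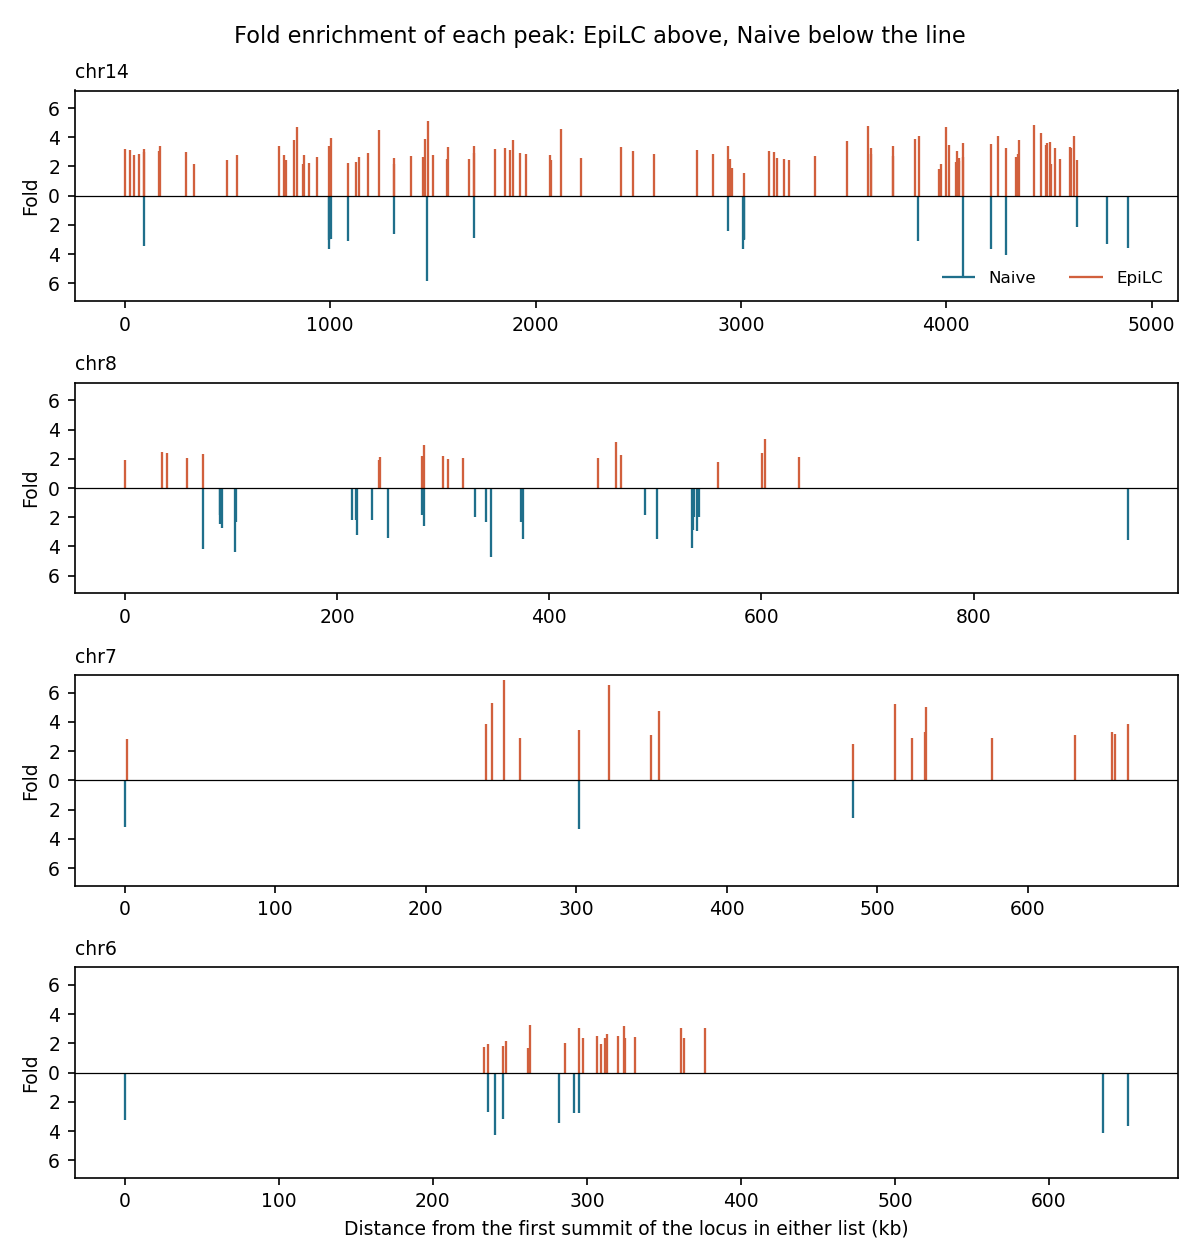
Fold enrichment of each peak (vertical axis, EpiLC above and Naive below the line) against the distance from the first summit of the locus in kb, for the windows of chr14, chr8, chr7 and chr6. EpiLC peaks are spread over nearly the whole chr14 window. On chr7 all but 1 lie within a part of the gene Snhg14, and on chr6 they crowd into one gap between genes.

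The chromosome 7 window held the highest EpiLC folds of all the loci. Snhg14 is a very long noncoding RNA gene that starts at the imprinted Snrpn region, hosts the C/D box snoRNAs Snord115 and Snord116 in tandem copies, and runs antisense over Ube3a, which encodes a ubiquitin ligase. Of the window's EpiLC summits, 18 of 19 lay in Snhg14, as did 2 of 3 Naive summits. The window had 206 annotated snoRNA genes at a median spacing of 1872 bp. None held a summit: the 18 EpiLC summits in Snhg14 lay 70 to 1143 bp from the nearest snoRNA, with a median of 462 bp. Copies 1872 bp apart leave few places farther than 1 kb from a snoRNA. The 17 EpiLC summits near a gene end here, 1 of them at Ube3a, were therefore not counted as a finding.

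Folds differed between copies, and so did backgrounds. The strongest EpiLC peak lay between the snoRNAs Gm26200 and Gm22632, with 104 fragments over a background of 14.2 and a fold of 6.89 (5.64 to 8.33). It was followed by peaks near Gm25742 (6.52, 4.93 to 8.47), Gm22511 (5.27, 4.03 to 6.79), Gm26332 (5.25, 4.10 to 6.62) and Gm25471 (5.0, 3.98 to 6.21). The remaining peaks in Snhg14 had folds of 2.46 to 4.77, among them peaks near Snord116l6 (3.31, 2.55 to 4.23) and Snord116l1 (3.83, 2.94 to 4.90). The interval of the strongest peak lay above those of the peaks near Snord116l6 and Snord116l1. Its pileup was not the highest. Peaks near Gm23944 and Gm26433 had 108 and 107 fragments, over backgrounds of 21.8 and 34.2, and folds of 4.77 and 3.07. The peak near Gm25742 had 54 fragments over 7.43, the lowest background of the list. None of these peaks had a Naive partner except at Gm24219, with folds of 3.35 in Naive and 3.46 in EpiLC, and at Gm22417, with 2.59 and 2.46.

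Ube3a had a peak near the same gene end in both lists, at places that did not overlap. The Naive fold was 3.20 (1.88 to 5.14) from 15 fragments, and the EpiLC fold was 2.86 (1.95 to 4.06) from 29. Snurf and the part of Snrpn inside the window held no summit. The part of Snrpn beyond the window held 1 EpiLC summit and no Naive summit. Of 5 other genes around this domain, all outside the window, Mkrn3 had 1 summit in each list, and Ndn, Magel2, Peg12 and Atp10a had none.

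On chromosome 6 the EpiLC peaks lay in a single gap between genes. All 20 EpiLC summits and 6 of 9 Naive summits fell in the 159.8 kb between Hrh1, which encodes a histamine receptor, and Atg7, which encodes an enzyme of autophagy, where the RefSeq table listed 0 genes. EpiLC folds ranged from 1.69 to 3.26. The strongest was at chr6:114529620 with 123 fragments over a background of 37.0, followed by chr6:114590237 (3.16), chr6:114561024 (3.07) and chr6:114627314 (3.05). The summit at chr6:114643089 (3.03) lay 38 bp outside the annotated end of Atg7 that faces Hrh1. None of the annotated transcript starts counted above lay within 1 kb of it. In the same gap the Naive folds were 2.71 to 4.28. Both lists had a peak at 3 places, with folds of 2.71 in Naive and 1.96 in EpiLC, of 3.21 and 1.84, and of 2.79 and 3.07, and the middle pair had intervals that did not overlap. The relative pileups of that pair were close, 16.2 in Naive and 16.8 in EpiLC. The 3 Naive peaks outside the gap stood on a low background, 2 of them in Vgll4 (4.15 and 3.62), which encodes a partner of TEAD transcription factors, and 1 between genes (3.26).

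The chromosome 8 window was the only placed window with more Naive than EpiLC peaks. Every peak there had a raised background, with a median relative background of 9.09 in Naive and 6.13 in EpiLC. The strongest Naive peak lay in 2610005L07Rik, a transcribed pseudogene, with 182 fragments over 37.7 and a fold of 4.73 (4.07 to 5.47). That gene had 4 Naive summits in its body or at its end and no EpiLC summit. Its neighbour 6820431F20Rik, another transcribed pseudogene, had 3 Naive and 2 EpiLC summits at different places. A Naive peak stood at the right-hand end of each, with a fold of 3.41 at 6820431F20Rik, next to the pseudogene Gm20583, and of 3.50 at 2610005L07Rik, next to the pseudogene Gm20584. Other strong Naive peaks were between genes at chr8:20153097 (4.35) and at the end of the pseudogene Gm21092 (4.13, 3.53 to 4.80), and near the window's right edge at chr8:20994187 (3.53), with the nearest Naive summit 16460 bp away.

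EpiLC peaks on chromosome 8 were led by 1 at the end of the lncRNA gene Gm46074 (3.36, 2.61 to 4.27) and 1 at Gm40467, also a lncRNA gene (3.17, 2.70 to 3.71). The lists shared 3 places, all between genes. At chr8:20122744 both summits fell on the same base, with 180 fragments and a fold of 4.19 (3.61 to 4.85) in Naive and 238 fragments and a fold of 2.31 (2.03 to 2.62) in EpiLC. The other 2 places had folds of 1.81 in Naive and 2.19 in EpiLC, and of 2.62 and 2.91, with overlapping intervals. In all, 7 of the window's 25 genes had a Naive summit, 5 had an EpiLC summit and 1 had both, with no share over all genes to compare. Defb33, a β-defensin gene of the window, had none.

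Where both lists had a peak in the 4 windows, summits were within 100 bp of each other in 17 of 18 pairs, and the farthest were 112 bp apart. Overlapping peaks are close by their choice, and in the rest of the lists it was so in 1150 of 1620 pairs (71.0%). EpiLC had the higher fold in 7 of 18 pairs, with a median EpiLC/Naive ratio of 0.964. The intervals were apart in 3 pairs, all with the higher fold in Naive. Judged by pileup over the lowest background of the list, EpiLC was higher in 12 of 18 pairs, with a median ratio of 1.06 (0.652 to 1.53), so the direction depended on the measure. In the 1620 pairs of the rest of the lists EpiLC was higher in 244 by fold, with a median ratio of 0.684, and in 607 by relative pileup, with a median ratio of 0.916.

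**Figure D4:**
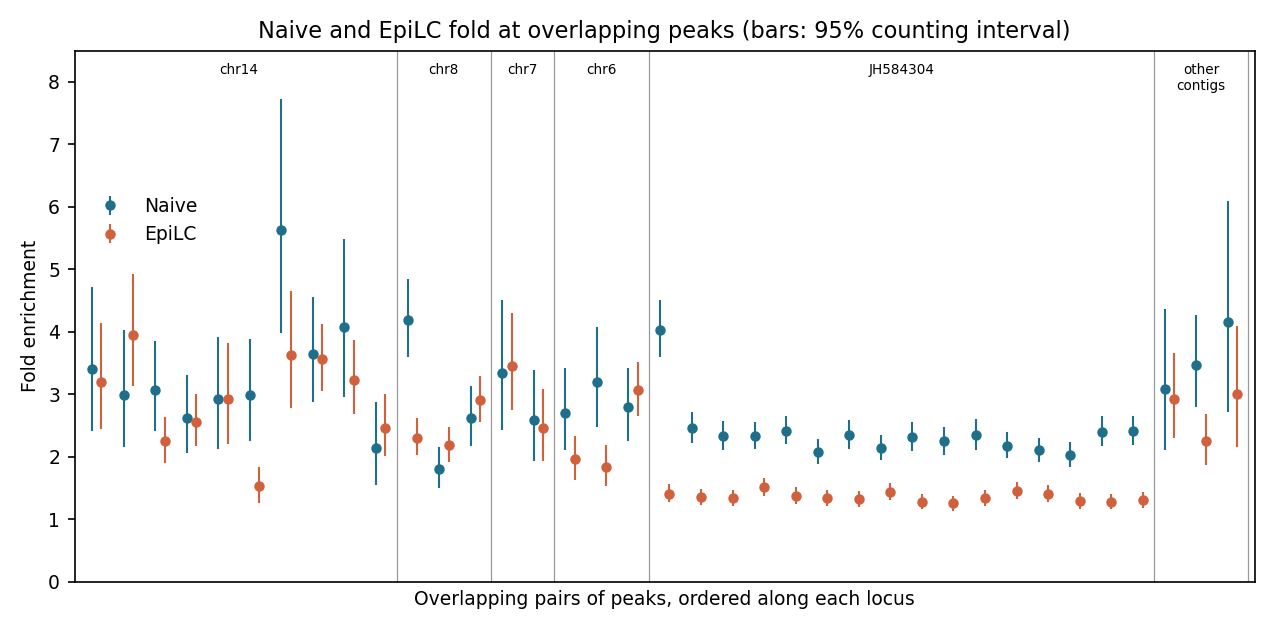
Fold enrichment (vertical axis) of the Naive and the EpiLC peak at each overlapping pair, ordered along each locus, with bars for the 95% Poisson counting interval. Naive points lie above EpiLC points with separate bars at all 16 pairs of JH584304, while in the windows most bars overlap.

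Contig JH584304 carried the deepest stacks of the set. RefSeq names no gene on it in the table used. Naive peaks there were long, with a median width of 1324 bp and a maximum of 5922 bp, and covered 40876 bp in 23 peaks. EpiLC peaks had a median width of 346 bp and covered 11461 bp in 29 peaks. Of the Naive peaks, 16 overlapped 28 EpiLC peaks, several at a time. The median fold was 2.31 in Naive and 1.33 in EpiLC. Each of the 16 was paired with its EpiLC peak of highest fold, and Naive was higher with separate intervals in all pairs. These are not all the same sites: summits were within 100 bp in 9 of the 16 pairs and up to 3327 bp apart in the others. The highest Naive fold, 4.04 (3.60 to 4.51), was at bases 58419 to 60884, where the EpiLC fold was 1.41 (1.27 to 1.56).

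The median pileups, however, were nearly equal, at 413 fragments in Naive and 421 in EpiLC, and what differed was the background, at 174.7 and 315.2 fragments. Relative to the lowest background of each list, that background was 43.6 in Naive and 42.4 in EpiLC. The pileups lay close to an upper limit of the list. The highest pileup of any peak was 444 in Naive and 438 in EpiLC, in each list exactly 2 times the width of its smallest peak (222 and 219 bp). The median pileup on the contig was 93.0% of that highest value in Naive and 96.1% in EpiLC. Pileups of at least 90% of the highest were found in 41 Naive peaks, 13 of them on the contig, and in 33 EpiLC peaks, 23 of them on the contig. At 438 fragments over the contig's median EpiLC background the fold would be 1.39, and at 444 over the Naive one 2.53. The part of this limit in the difference of folds was not tested, and the intervals of the folds take no account of it.

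**Figure D5:**
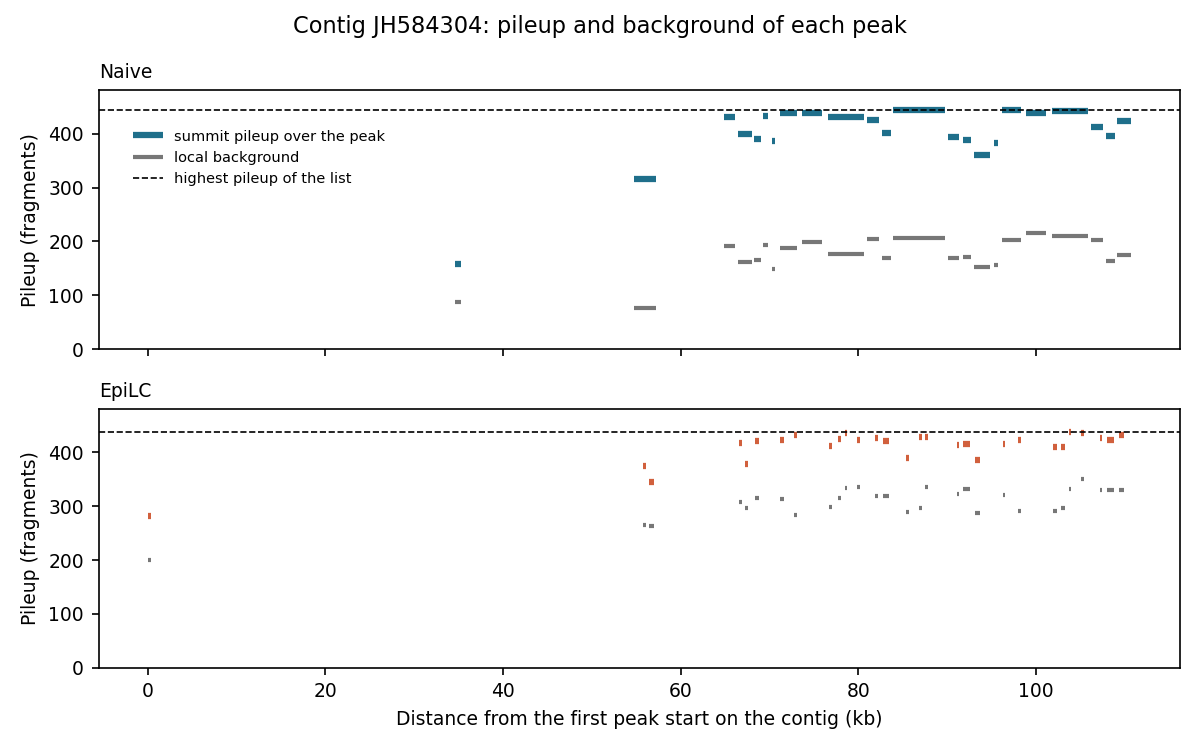
Summit pileup and local background in fragments (vertical axis), each drawn across the width of its peak, against the distance from the first peak start on JH584304 in kb, with the highest pileup of each list as a dashed line. Most pileups lie near the dashed line in both lists, those toward the left end of the contig lie lower, and the grey background lies higher in EpiLC.

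Of the other contigs, GL456368 held 3 Naive peaks (2.61, 3.48 and 3.66) and 1 EpiLC peak (2.25). GL456367 held 1 Naive peak (3.09) and 4 EpiLC peaks (2.92 to 5.82), and GL456370 held 1 (3.84) and 3 (2.41 to 5.46). GL456354 had 1 peak in each list, with folds of 4.15 and 3.02. Naive peaks alone were found on GL456216 (4.40 and 4.60), GL456210 (4.10), GL456221 (2.91), GL456389 (2.05) and GL456392 (2.09 and 1.65). GL456392 stood apart by its pileups of 317 and 224 fragments over relative backgrounds of 37.7 and 33.7. The lists met at 3 places, on GL456354, GL456367 and GL456368, with the higher fold in Naive at each and separate intervals on GL456368.

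On chrM, which is present in many copies per cell, the Naive list had 5 peaks and the EpiLC list none. Folds were low, 1.52 to 2.03, on relative backgrounds of 27.8 to 36.6. Of the summits, 2 lay in mt-Rnr1 and 1 in mt-Rnr2, the genes of the small and large mitochondrial ribosomal RNA. The other 2 lay after the tRNA gene TrnP, the last annotated gene, in the stretch that holds the control region of replication and transcription. The strongest was there, at bases 15805 to 16259, with 299 fragments over a background of 146.6 and a fold of 2.03 (1.81 to 2.28). The number of mitochondrial fragments in the EpiLC library is not known from its peak list, and the lack of a call is not a measured absence.

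The labelled cell states were set beside peaks with a summit within 1 kb of an end of marker genes, which are no measure of expression. The share of all genes with such a peak was not counted. The lists also differ in length, with 12132 Naive and 3494 EpiLC peaks, so the counts that follow are a description only. Of 8 naive pluripotency markers, 7 had a Naive peak (all but Esrrb), among them Nanog, Klf4 and Zfp42, and 1 had an EpiLC peak (Tbx3). Of 6 primed markers, none had a Naive peak and 5 had an EpiLC peak (all but Otx2), among them Fgf5, Pou3f1 and Dnmt3b. None of 3 trophectoderm markers had a peak in either list, and of 3 primitive endoderm markers Gata6 had an EpiLC peak.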

How the data were processed

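The authors deposited 1 narrowPeak list per condition, each with its own ChIP library. The build was GRCm38 (mm10), per the submitters' processing notes, which also list MACS2, Bowtie2, Picard and fastp without versions. The control used and the treatment of reads with several matches are stated in none of these sources. The deposited fold is the authors' ratio over background at the summit, the −log10 p-value and the −log10 q-value per peak are also as the authors deposited them, and the other deposited column gives the summit position as a distance from the peak start. The deposited score was not used. Every listed peak has a q below 0.01.

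Pileup and background were solved from each peak's fold, taken to be (pileup + 1) / (background + 1), and from its p-value, taken to be the Poisson chance of exceeding the pileup. A whole pileup met the deposited −log10 p within 0.001 for 100% of 12132 Naive and 3494 EpiLC peaks, with a single match each. The code was tested on simulated data. Library totals were not used here. Overlap means at least 1 bp (Python 3.11.15, pandas 2.3.3, scipy 1.17.1; bedtools 2.31.1 gave the same counts). Intervals are 95% Poisson for folds and exact binomial (Clopper-Pearson) for shares. Genes and promoters come from RefSeq (GRCm38.p6), promoters aligned with Biopython 1.88. Contig genes and the sequence under peaks were not analysed here.

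The members and lists were chosen with earlier results of these data known. Named genes are those at the 5 highest folds of each list in each locus, and those at peaks found in both lists, with the gene families of each locus; Defb33, LOC115488283 and other genes outside that rule were added after their values were seen.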

Additional observations from a re-analysis of the deposited data

How the results depend on the processing

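Of 136 alternative values, 108 stayed within the 95% interval of the value reported (order-statistic interval for medians; within 1.5 times for numbers of peaks) and 28 left it. With −log10 q of at least 5, the median EpiLC fold was 3.01, EpiLC overlap 18.5% and EpiLC close neighbours 47.3%. With 1 peak per group of summits within 10 kb, the median fold was 3.05 in EpiLC and 3.41 in Naive. With the Naive list shortened to the EpiLC length, 53 Naive peaks remained in the loci, 96.2% of them on a raised background, and EpiLC overlap was 18.8%. Counting a background as raised at 1.5 or 3 times gave 89.8% and 50.8% in EpiLC. A gene end within 500 or 3000 bp gave 15.7% and 36.5% in EpiLC and 17.7% and 54.8% in Naive. A neighbour within 2 or 50 kb gave 28.4% and 90.9% in EpiLC and 48.0% and 76.5% in Naive.

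Leaving out each locus in turn gave ranges as follows. The number of peaks was 96 (without chromosome 14) to 197 in EpiLC and 72 to 95 in Naive. The median fold was 2.27 to 2.90 in EpiLC and 2.43 to 3.03 in Naive. Overlap was 12.5% (without JH584304) to 40.6% (without chromosome 14) in EpiLC and 28.0% to 47.2% in Naive. A raised background was found in 68.5% to 86.5% of EpiLC and 83.3% to 90.6% of Naive peaks. Gene ends were near 17.1% (without chromosome 7) to 36.2% of EpiLC and 24.6% to 41.7% of Naive summits. Close neighbours were found at 51.2% to 80.2% of EpiLC and 57.3% to 74.7% of Naive summits.

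Each condition had 1 ChIP library, so no fit without a replicate was run. No paired analysis was possible because the result comes from no test. Pileup and background limit each fold, and a copy without a call is not shown to be without binding.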
